A study of Mus musculus with 12 samples.

Results

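Pi16 and 8 other genes used to identify fibroblasts and their progenitors (Cd34, Ly6a, Dpp4, Dpt, Pdgfra, Pdgfrb, Thy1 and Anxa3) were followed across 4 treatments of cultured hernia-associated fibroblasts (HAFs). The genes were selected on measured values: they were proposed with Pi16 known to be higher with E2 plus fulvestrant than with E2 alone in these samples, so that contrast is described below and not tested. Of the 9 genes, 8 had a row among the 13233 genes of the deposited table, and Dpp4 was not analysed here. HAFs were adherent fibroblasts pre-plated from the lower abdominal muscle (LAM) of male Aromhum mice, which carry the human aromatase gene, make excess estrogen in this muscle and develop inguinal hernias. Bulk RNA-seq was done on 12 samples in 4 groups of 3: vehicle, E2 (17β-estradiol) at 10 nM, E2 at 10 nM plus fulvestrant at 100 nM, and fulvestrant alone at 100 nM, each for 48 h in medium with charcoal-stripped serum. Before E2 or its ethanol vehicle was added, cells of the fulvestrant groups were pretreated with fulvestrant and the others with DMSO. All groups, vehicle included, shared the Aromhum genotype and the FVB/N background, and no wild-type cells were among the samples. The labels number the replicates 1 to 3 but do not say whether the numbers are separate mice or cultures. Unless a fit without the replicate block is named, the p-values below measure how differences between same-numbered samples vary in this set.

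Pi16 encodes a peptidase inhibitor of the CAP superfamily, and together with the surface peptidase Dpp4 it marks a progenitor-like state of connective tissue fibroblasts found in many organs. Cd34, Ly6a (the surface protein Sca-1) and Pdgfra are the antigens by which fibro-adipogenic progenitors of skeletal muscle are usually sorted. Those progenitors rest between the muscle fibers, support regeneration, and can turn into matrix-producing fibroblasts when muscle is injured. E2 acts mainly through the estrogen receptor ESR1, and fulvestrant is an antagonist that leads to degradation of that receptor.

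The values are normalized counts, read counts divided by a size factor for each sample. The reads assigned to the listed genes numbered from 18827792 to 44040507 per sample (median 31703872), and the least abundant values of the members rested on 34 reads for Thy1 and 72 reads for Pi16. Samples with replicate number 1 stood apart from those numbered 2 and 3 in every group. In the 4 samples of replicate 1, 3096 genes (23.4% of the table) lay below all 8 samples of replicates 2 and 3, and 2862 genes (21.6%) lay above them. Every comparison was therefore made within replicate numbers, and several results that rest on replicate 1 are given with and without it. In bulk RNA, fewer cells of one kind and less RNA per cell cannot be told apart.

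The short stretch upstream of Pi16 and the 250 bases upstream of Cd34 are shown because these genes moved with fulvestrant and with E2, respectively. RefSeq promoter windows on GRCm38.p6 matched 4 of the 8 genes, namely Pi16, Cd34, Dpt and Pdgfra. Capitals mark TGACC, the half-site of an estrogen response element, which was searched on both strands (GGTCA on the other).
Pi16, chr17:29318744-29318768, plus strand, 25 bases: gttgctgtcaTGACCcttgcatcat
Cd34, chr1:194938571-194938820, plus strand, 250 bases: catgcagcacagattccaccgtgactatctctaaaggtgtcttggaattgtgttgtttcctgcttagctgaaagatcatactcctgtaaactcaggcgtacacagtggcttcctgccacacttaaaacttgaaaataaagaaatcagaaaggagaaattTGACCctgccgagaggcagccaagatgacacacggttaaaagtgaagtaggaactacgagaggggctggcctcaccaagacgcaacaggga
The half-site of Pi16 lay 128 to 124 bases before the RefSeq start, and that of Cd34 lay 91 to 87 bases before it. The half-site was found in these 2 of the 4 windows and in 35.2% of all 32851 RefSeq windows of 250 bases, so it is a common string of letters and its presence is a description only. The full element GGTCANNNTGACC, of which TGACC is a part, was in 0.0639% of all windows, the GC box GGGCGG in 32.7% and the AP-1 motif TGANTCA in 6.75%, and none of the 4 windows held any of these 3. The RefSeq start of Pi16 was 1202 bases downstream of the outermost start in the GENCODE annotation, and the whole Pi16 window of 250 bases fell inside annotated exons of Pi16.

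Pi16 was higher in every sample that had received fulvestrant than in any that had not (gene ENSMUSG00000024011, chromosome 17, 29317680 to 29330593, GRCm38). Normalized counts of Pi16 were 80.5, 73.1 and 87.7 with vehicle, 119, 107 and 96.6 with E2, 646, 522 and 504 with E2 plus fulvestrant, and 707, 327 and 324 with fulvestrant, in the order of replicates 1 to 3. The vehicle and E2 groups did not overlap with each other, and the fulvestrant group spanned the whole range of the E2 plus fulvestrant group because replicate 1 of fulvestrant was high and replicates 2 and 3 were low. The order of the group means was therefore vehicle (80.4 ± 7.32, SD, n = 3), E2 (108 ± 11.4), then fulvestrant (453 ± 220) and E2 plus fulvestrant (557 ± 77.6). Within replicate numbers, E2 plus fulvestrant was at 0.914-fold of fulvestrant in replicate 1 and at 1.6-fold and 1.55-fold in replicates 2 and 3. That difference was not tested for Pi16.

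**Figure D1:**
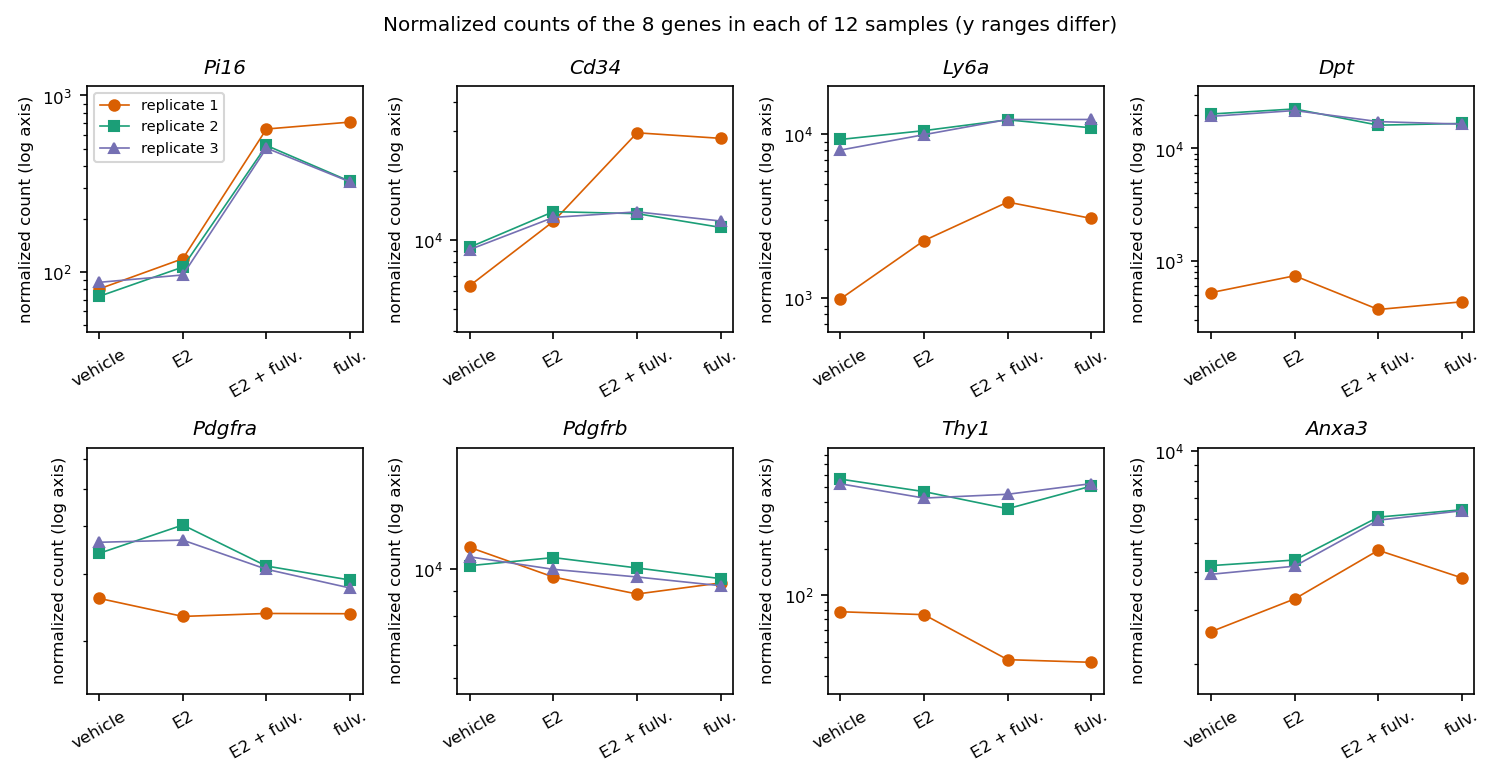
Normalized count (log axis, ranges differ between panels) of each of the 8 genes in the 12 samples, with treatment on the x axis and 1 line and marker for each replicate number. Pi16 sits between 73.1 and 119 in the 6 samples without fulvestrant and between 324 and 707 in the 6 with it, and the replicate 1 line is far below the others for Ly6a, Dpt and Thy1.

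Fulvestrant against vehicle shares no sample with the contrast in which Pi16 was noticed, and asks what the antagonist does when no E2 is added. The members and the lists below were chosen with earlier results of these data known. The p-values of this comparison may therefore not be free of that choice. Pi16 rose 5.2-fold (log2 fold change 2.38, SE 0.24, limma adjusted p = 0.00547), and it rose 8.69-fold in replicate 1, 4.42-fold in replicate 2 and 3.67-fold in replicate 3. Only 3 of the 13233 genes had a larger fitted rise. Without replicate 1 the rise of Pi16 was 2.01 (limma adjusted p = 5.05e-06), without replicate 3 it was 2.63 and no longer passed (limma adjusted p = 0.0534), and in the fit without the replicate block it did not pass either (limma adjusted p = 0.316).

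Anxa3, which encodes a calcium-dependent phospholipid-binding annexin, was the other member that passed (ENSMUSG00000029484, chromosome 5, 96793339 to 96845966). Its normalized counts were 2556, 4210 and 3942 with vehicle, 3274, 4391 and 4192 with E2, 4726, 6071 and 5932 with E2 plus fulvestrant, and 3836, 6418 and 6370 with fulvestrant. Each replicate number was higher with fulvestrant than with vehicle, while the groups overlapped because the fulvestrant sample of replicate 1 was below both vehicle samples of replicates 2 and 3. Anxa3 rose 1.55-fold with fulvestrant (log2 fold change 0.63, SE 0.068, limma adjusted p = 0.0064), with log2 differences of 0.59, 0.61 and 0.69 in replicates 1 to 3. The rise was 0.65 without replicate 1 (limma adjusted p = 0.00016), and it did not pass without replicate 2 (limma adjusted p = 0.0658), without replicate 3 (limma adjusted p = 0.0727) without the variance trend (limma adjusted p = 0.0608) or without the replicate block (limma adjusted p = 0.974). In the annotation, 3.07% of the exon length of Anxa3 lies under another gene on the same strand (Gm42603).

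In all, 2 of the 8 members passed in fulvestrant against vehicle, both higher, beside a background of 692 of 13233 genes called (5.23%), of which 362 were higher (2.74%) and 330 lower (2.49%). Calls required both an adjusted p under 0.05 and a difference of more than 1.2-fold. Without replicate 1, 4 members were called, all higher, beside a background of 2208 genes (16.7%): Pi16, Anxa3, Cd34 and Ly6a.

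**Figure D2:**
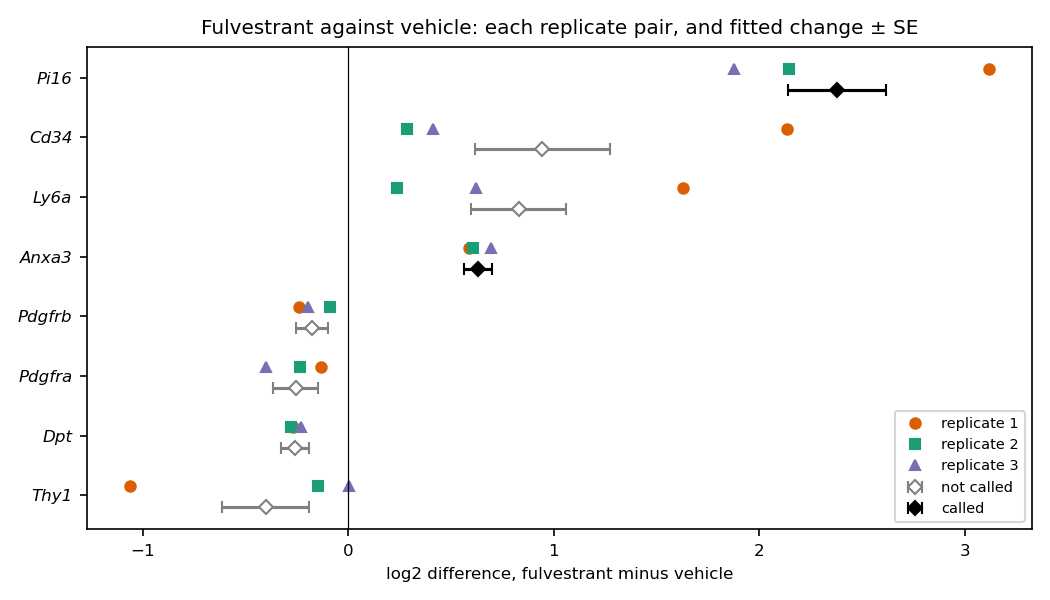
Log2 difference between fulvestrant and vehicle for each member, with colored symbols for the 3 replicate pairs and a diamond for the fitted change ± SE (filled where called). Pi16 (2.38) and Anxa3 (0.63) are called, and for Cd34 and Ly6a the replicate 1 pair (2.13 and 1.63) lies far to the right of the other pairs.

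Cd34 and Ly6a, both surface antigens of muscle progenitors, were higher with fulvestrant in each of the 3 pairs but did not pass. Cd34 (ENSMUSG00000016494, chromosome 1, 194938819 to 194961279) encodes a sialomucin, and its normalized counts with vehicle were 6339, 9330 and 9108 and with fulvestrant 27826, 11374 and 12129. Replicate 1 was the lowest vehicle sample and the highest fulvestrant sample, a 4.39-fold difference, against 1.22-fold and 1.33-fold in replicates 2 and 3. The fitted difference was 0.94 on the log2 scale (SE 0.33, limma adjusted p = 0.156), and without replicate 1 it was smaller and passed (0.35, SE 0.089, limma adjusted p = 0.0165). Ly6a (ENSMUSG00000075602, chromosome 15, 74994877 to 74998031, minus strand) had normalized counts of 990.3, 9302 and 8014 with vehicle and of 3068, 10950 and 12315 with fulvestrant. Its fitted difference was 0.83 (SE 0.23, limma adjusted p = 0.0961), and 0.43 without replicate 1 (SE 0.10, limma adjusted p = 0.0117). With all 12 samples in one fit Ly6a passed as well (limma adjusted p = 0.0343), which made 3 members called beside a background of 1648 genes (12.5%).

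The PDGF receptors, which carry growth signals from platelet-derived growth factors in fibroblasts and mural cells, were slightly lower with fulvestrant in each pair and did not pass. Pdgfra (ENSMUSG00000029231, chromosome 5, 75152292 to 75198215) had normalized counts of 25827, 33942 and 36292 with vehicle and of 23531, 28864 and 27501 with fulvestrant, a fitted difference of -0.26 (SE 0.11, limma adjusted p = 0.232). Pdgfrb (ENSMUSG00000024620, chromosome 18) had 11071, 10161 and 10591 with vehicle and 9368, 9558 and 9245 with fulvestrant, a difference of -0.18 (SE 0.078, limma adjusted p = 0.25). For Pdgfrb the highest fulvestrant sample lay below the lowest vehicle sample, whereas the Pdgfra groups overlapped. Pdgfrb was the steadiest member, with a total SD over the 12 samples of 0.091 on the log2 scale.

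Dpt and Thy1 did not pass either, and replicate number was the main source of their spread. Dpt (ENSMUSG00000026574, chromosome 1, 164796644 to 164824266) encodes dermatopontin, a small matrix protein that binds collagen and decorin, and its normalized counts were 522, 20268 and 19301 with vehicle and 432, 16708 and 16472 with fulvestrant. The difference was nearly the same within each pair, -0.27, -0.28 and -0.23, with a fitted value of -0.26 (SE 0.068, limma adjusted p = 0.0801). Thy1 (ENSMUSG00000032011, chromosome 9, 44043384 to 44048579), a glycolipid-anchored surface protein of many fibroblasts, had 78.3, 562 and 524 with vehicle and 36.9, 507 and 525 with fulvestrant. Only the replicate 1 pair of Thy1 moved by a visible amount (-1.06, against -0.15 and 0.00), and the fitted difference was -0.40 (SE 0.21, limma adjusted p = 0.33). Without replicate 1 the difference of Thy1 was -0.0729 (limma adjusted p = 0.713). Together the 8 members thus held 4 with a positive and 4 with a negative fitted difference, of which 2 and 0 were called.

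E2 against vehicle asks what the hormone adds when the receptor is not blocked. It called 1 of the 7 members tested, beside a background of 57 of 13233 genes (0.431%), of which 43 were higher (0.325%) and 14 lower (0.106%). Cd34 rose from 6339, 9330 and 9108 to 12090, 13326 and 12578 normalized counts, so that all E2 samples were above all vehicle samples. The rise was 1.56-fold (log2 fold change 0.64, SE 0.089, limma adjusted p = 0.0338), and 1.91-fold, 1.43-fold and 1.38-fold in the 3 pairs. It did not pass without replicate 1 (0.49, limma adjusted p = 0.0524), without replicate 3 (0.72, limma adjusted p = 0.149) or without the replicate block (limma adjusted p = 1), and it passed in 4 of 11 alternative fits, over which its adjusted p ran from 1.33e-05 to 1.

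The other 6 members tested did not pass with E2. Ly6a was higher in each pair, at 2248, 10528 and 9947 normalized counts with E2 (log2 difference 0.56, SE 0.16, limma adjusted p = 0.229), and so was Dpt, at 737, 22485 and 21767 (0.27, SE 0.072, limma adjusted p = 0.202). Both passed when replicate 2 was left out, with limma adjusted p = 0.000469 for Ly6a and 0.00477 for Dpt, in a fit that called 279 of all genes (2.11%). Without replicate 1 both were smaller and did not pass, at 0.245 for Ly6a (limma adjusted p = 0.2) and 0.162 for Dpt (limma adjusted p = 0.358). Anxa3 differed by 0.17 (SE 0.065, limma adjusted p = 0.303), and by 0.0746 without replicate 1 (limma adjusted p = 0.606). Thy1, at 75.0, 467 and 424 with E2, differed by -0.21 (SE 0.10, limma adjusted p = 0.385). Pdgfra, at 23150, 40301 and 36773 with E2, differed by 0.04 (SE 0.092) and Pdgfrb, at 9631, 10554 and 9987, by -0.08 (SE 0.062), with signs that varied between pairs. Pi16 was not tested here, because the E2 samples also took part in the contrast in which it was noticed; its E2 samples exceeded vehicle 1.48-fold, 1.46-fold and 1.10-fold.

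E2 plus fulvestrant against fulvestrant asks what E2 does once the receptor is antagonised, and none of the 7 members tested was called. The background was 0 of 13233 genes (0%) by limma, with 516 genes at an unadjusted p under 0.05. Cd34 was higher with E2 in each pair, at 29423, 13062 and 13300 normalized counts (log2 difference 0.14, SE 0.048, limma adjusted p = 0.998). Ly6a, at 3861, 12256 and 12307, differed by 0.16 (SE 0.06), Pdgfra, at 23569, 31424 and 30814, by 0.10 (SE 0.054), and Anxa3 by 0.04 (SE 0.072). Thy1, at 38.4, 362 and 449, differed by -0.22 (SE 0.13), and without replicate 1 it was called lower (-0.36, limma adjusted p = 0.0277), in a fit that called 147 of all genes (1.11%). Dpt, at 369, 16120 and 17343, differed by -0.07 (SE 0.058) and Pdgfrb, at 8893, 10052 and 9634, by 0.02 (SE 0.048). Pi16, given without a test, differed from fulvestrant by -0.13 on the log2 scale in replicate 1 and by 0.67 and 0.63 in replicates 2 and 3.

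E2 plus fulvestrant against E2 is the contrast with which the members were proposed, so its values are a description. Pi16 was higher by 2.43, 2.27 and 2.37 on the log2 scale in the 3 pairs (mean 2.36, SD 0.077, a 5.12-fold difference). Anxa3 was also higher by a steady amount in the pairs, 0.53, 0.47 and 0.50. Cd34 was 2.43-fold higher in replicate 1 but 0.98-fold and 1.06-fold of the E2 level in replicates 2 and 3. Ly6a was higher in each pair (mean 0.44, SD 0.30), while Dpt was lower in each pair (mean -0.60, SD 0.35) and Pdgfrb was lower in each pair as well (mean -0.08, SD 0.032). Pdgfra (-0.20) and Thy1 (-0.41) were lower on average and each went the other way in 1 pair. The median difference over all genes was 0.01.

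The replicate numbers separated the members more than the treatments did for Dpt, Thy1, Ly6a and Pdgfra. Replicate 1 lay below every sample of replicates 2 and 3 for these 4 of the 8 members, beside a background of 23.4%, and above them for none of the 8, beside 21.6%. Dpt was 37.4-fold lower in replicate 1, from 369 to 737 normalized counts against 16120 to 22485, and only 6 of the 13233 genes were lower by more. Thy1 was 8.66-fold lower (36.9 to 78.3 against 362 to 562), Ly6a 4.67-fold lower (990.3 to 3861 against 8014 to 12315) and Pdgfra at 0.727-fold of the level in replicates 2 and 3. Of the variance of log2(normalized count + 1) over the 12 samples, the replicate number held 98.9% for Dpt, 95.2% for Thy1, 83.8% for Ly6a and 68.3% for Pdgfra, against a median of 57.7% over all genes. These shares were 41.7% for Anxa3, 12.3% for Cd34 and 6.33% for Pdgfrb. That of Pi16 was 2.6%, which is no independent result, since the samples that chose Pi16 enter it.

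Genes of other lists also differed by replicate number, in both directions. The tenocyte list, genes of tendon cells, had 4 of its 6 genes in the table, and all 4 were above in replicate 1: Tnmd 44.2-fold, Scx 6.09-fold, Fmod 5-fold and Mkx 4.35-fold. Their summed level was 17856 to 30887 normalized counts in replicate 1 and 3784 to 5596 in replicates 2 and 3. Among the adipocyte genes, 3 of 8 were in the table and all were below, led by Lpl (14.4-fold lower). Their summed level, mostly Lpl, was 2433 to 3993 in replicate 1 against 32840 to 39409. Of the 12 progenitor-associated genes analysed, 4 were below in replicate 1 and 0 above, and of the 10 muscle fibro-adipogenic genes 6 were below and 1, Itgav, was above, beside 23.4% and 21.6% of all genes; the rest overlapped. Among those below, Scara5 was 8.02-fold and Ly6c1 10.8-fold lower in the first list, and in the second Osr1 was 3.9-fold and Vcam1 4.17-fold lower. The part of these differences in the members' values was not tested.

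**Figure D3:**
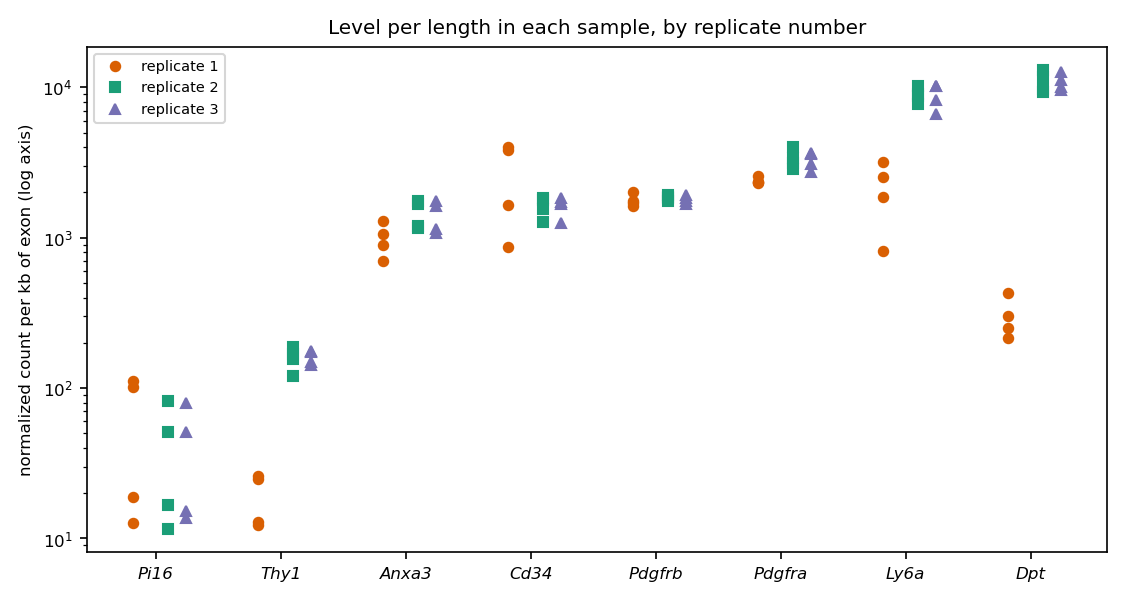
Normalized count per kb of exon (log axis) of each member in each of the 12 samples, with 1 column and marker for each replicate number. Replicate 1 is below the other numbers for Dpt, Ly6a, Thy1 and Pdgfra, while Pi16 has a high and a low pair of points in every replicate number.

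On the per-length scale, the members covered a wide range of levels. In replicates 2 and 3 the median level over 8 samples was highest for Dpt (10627 normalized counts per kb of exon) and Ly6a (8912), followed by Pdgfra (3260), Pdgfrb (1829), Cd34 (1695) and Anxa3 (1417), with Thy1 (163) and Pi16 (33.9) lowest. The ranges of Pdgfrb (1688 to 1933), Cd34 (1249 to 1828) and Anxa3 (1082 to 1762) overlapped, as did those of Dpt (9350 to 13042) and Ly6a (6651 to 10220), over treatments pooled. Within the samples of replicates 2 and 3 the order depended on treatment: Dpt was above Ly6a in the 4 samples without fulvestrant (with vehicle 11756 against 7719 and 11195 against 6651) and below it in 3 of the 4 with fulvestrant, and Cd34 was above Anxa3 with vehicle (1280 against 1156 in replicate 2) and below it with fulvestrant alone (1560 against 1762). In replicate 1 the 4 samples, 1 for each treatment, ranged from 870 to 4036 for Cd34, from 2309 to 2577 for Pdgfra, from 822 to 3205 for Ly6a, from 1623 to 2021 for Pdgfrb and from 702 to 1297 for Anxa3. Cd34 was above Pdgfra in the 2 samples with fulvestrant (4036 and 3817) and below it in the vehicle (870) and E2 (1658) samples, so its place in the order depended on treatment there too. Dpt ranged from 214 to 427, Pi16 from 12.7 to 111 and Thy1 from 12.3 to 26.1. Pi16 stayed a low-abundance gene also with fulvestrant, at 51.0 to 111 per kb.

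The label of fibroblasts was checked against the lists of other cells, of which the tenocyte list in replicate 1 and the adipocyte list in replicates 2 and 3 had the highest summed levels (both given above). The adipocyte sum in replicates 2 and 3 was mostly 1 gene, Lpl, at 31513 to 38167 normalized counts. Fibroblast genes were abundant: the 12 matrix genes were all in the table, with a summed level of 542260 to 853984 normalized counts. None of the 8 myogenic genes had a row. Every value in the table rested on at least 10 reads, so a gene without a row may still have been expressed in some samples. The endothelial list had only Tek (58.4 to 277), and the immune list Cd68, Lyz2 and Cd14, at 168 to 487 in sum. Pericyte and smooth muscle cells were represented by Cspg4, Mcam, Myh11 and Notch3 (2042 to 4528 in sum, mostly Cspg4), and mesothelial cells by Wt1 (27.2 to 70.5).

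Genes related to the members by function or family were compared with fulvestrant against vehicle. The lists held 154 distinct genes beside the members, of which 88 were analysed, 8 were called higher and 5 lower, beside 2.74% and 2.49% of all genes; the counts by list below rest on few genes and are read as descriptions. Among the genes that accompany Pi16 and Dpp4 in progenitor fibroblasts, 2 of 12 were higher and 1 was lower, with a median log2 difference of -0.06 (0.01 over all genes). Creb5, a transcription factor, rose 2.42-fold, from 13.2, 26.1 and 26.8 to 29.3, 75.2 and 64.9 normalized counts (log2 fold change 1.28, SE 0.24, limma adjusted p = 0.0295). Ackr3, a scavenging chemokine receptor, rose 1.44-fold (limma adjusted p = 0.0225). Sema3c, a secreted semaphorin, fell 1.74-fold, from 26404, 19187 and 19139 to 12576, 12513 and 11633 (log2 fold change -0.80, SE 0.11, limma adjusted p = 0.0127).

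Of the 10 muscle fibro-adipogenic genes analysed, 2 were higher and 1 was lower, with a median of 0.12. Gsn, an actin-severing protein, rose 2.32-fold, from 46094, 64286 and 61053 to 175935, 111023 and 116158 normalized counts (limma adjusted p = 0.0419). Osr1, a transcription factor of muscle connective tissue, rose 1.36-fold (limma adjusted p = 0.0411). Lum, the proteoglycan lumican, fell 2.26-fold, from 1064, 3337 and 3410 to 622, 1318 and 1271 (log2 fold change -1.18, SE 0.13, limma adjusted p = 0.00653). None of the 12 matrix genes was called (median 0.06). Of the 9 myofibroblast genes, Postn, a matricellular protein of activated fibroblasts, was called and fell 1.94-fold (limma adjusted p = 0.0148), with a list median of 0.08.

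The families of the members were measured alongside them. Of the 9 annexins related to Anxa3, 3 rose and none fell (median 0.20). Anxa8 rose 1.97-fold, from 329, 251 and 242 to 704, 458 and 475 normalized counts (log2 fold change 0.98, SE 0.11, limma adjusted p = 0.0066), and Anxa1, an anti-inflammatory annexin, rose 1.68-fold (limma adjusted p = 0.0141). The third was Anxa2, with a log2 fold change of 0.46; it did not pass with quantile normalization or after rescaling, which left 2 annexins called. Of the 4 relatives of Ly6a, Plaur, the urokinase receptor, rose 2.14-fold (limma adjusted p = 0.0424), with a smaller change in replicate 1 (56.2 to 72.8) than in replicate 2 (312 to 832) and replicate 3 (336 to 963). None of the 3 CAP superfamily relatives of Pi16 (median 0.13) and none of the 6 genes listed for Dpp4 (median 0.09) was called. The list for Dpp4 held Dpp3, Dpp7, Dpp8, Dpp9 and Prep, and also Adam17, a metalloprotease that is not of that family.

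Of the 5 PDGF ligands and receptor partners, Pdgfd, a ligand of PDGFRB, was the gene called, and it fell 1.86-fold (log2 fold change -0.89, SE 0.15, limma adjusted p = 0.0206). Its normalized counts went from 2588, 1018 and 923 with vehicle to 1010.1, 622 and 603 with fulvestrant. The tenocyte gene Mkx fell 1.57-fold (limma adjusted p = 0.0341), and the other lists of other cell types had no call. Without replicate 1, when 16.7% of all genes were called, the counts were larger for several lists, at 3 higher and 4 lower of 12 progenitor-associated genes, 3 and 3 of 10 muscle fibro-adipogenic genes, 2 and 2 of 12 matrix genes, and 5 and 2 of 9 myofibroblast genes. With all 12 samples in one fit (12.5% of all genes called), these were 3 and 2, 2 and 2, 2 and 2, and 0 and 3, respectively, and 3 of the 4 tenocyte genes were called lower. The annexins had 3 higher and 0 lower in both of these fits. All 12 list genes named by size of change passed without replicate 1, whereas none passed without replicate 2, without replicate 3 or without the replicate block, and 2 passed without the variance trend. With quantile normalization and after rescaling to the total of the listed genes 11 of the 12 passed, and Osr1 did not (limma adjusted p = 0.0568 and 0.0549).

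**Figure D4:**
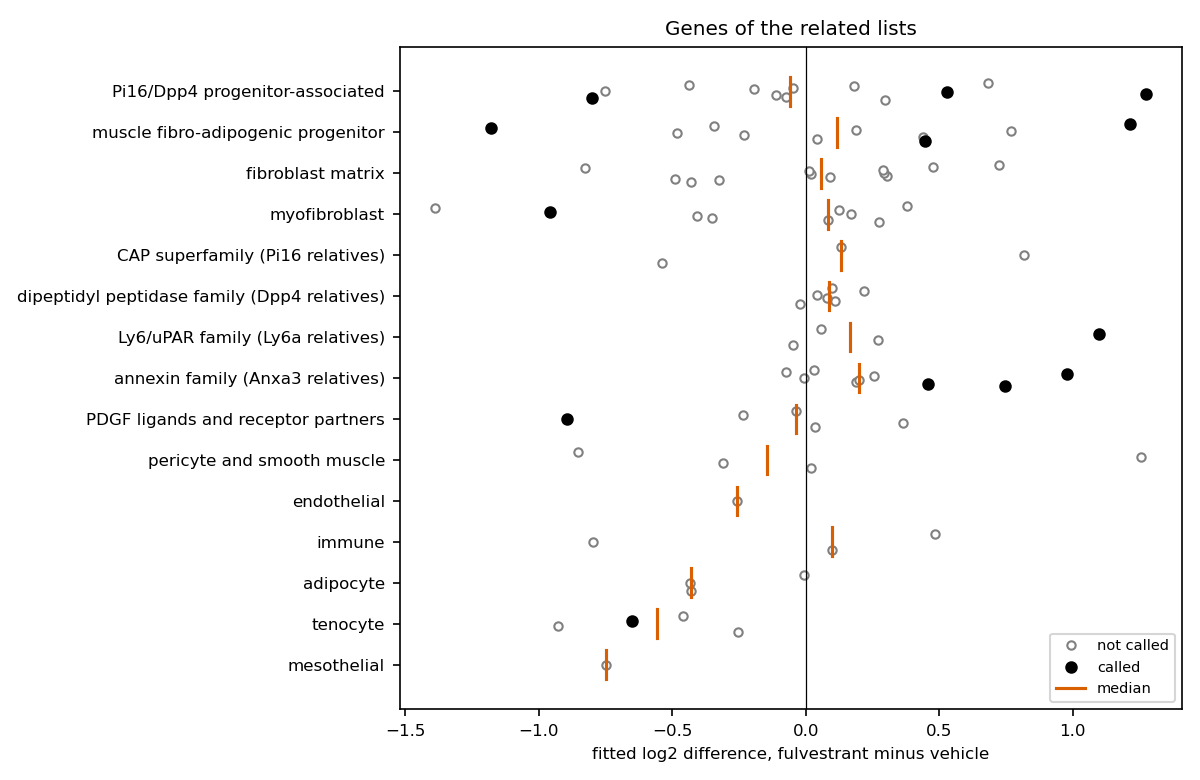
Fitted log2 difference between fulvestrant and vehicle of each analysed gene of 15 related lists, with filled points for genes called and an orange bar for the list median. The annexin list holds 3 called genes, all to the right of 0, and both progenitor lists hold called genes on both sides.

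In E2 against vehicle, 2 of the 88 list genes were called higher and 1 lower, beside 0.325% and 0.106% of all genes. Both that rose were progenitor-associated, Igfbp6, an IGF-binding protein (log2 fold change 0.59, SE 0.079, limma adjusted p = 0.0285), and Cd248, the surface protein endosialin (0.46, SE 0.063, limma adjusted p = 0.0334). The one that fell was Ccn2, connective tissue growth factor (-0.38, SE 0.054, limma adjusted p = 0.0383). No list gene was called in E2 plus fulvestrant against fulvestrant. None of the 3 genes called with E2 passed without replicate 1, without replicate 3, with all 12 samples in one fit, without the variance trend or without the replicate block. They were named because they were few, after their values were seen.

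The genes with the profile most like that of Pi16 were sought over the 12 samples, after the mean of each replicate number was subtracted from log2(normalized count + 1). Among 11273 genes with a mean of at least 100 normalized counts, these were Klf13 (Pearson r = 0.993), Sult1a1 (0.992), Abi1 (0.991), Maob (0.988) and Klhl2 (0.988). The 12 points share 3 replicate numbers and 4 treatments, so the coefficients describe likeness in shape only. The samples that chose Pi16 enter them, so a shared step with fulvestrant is no independent result. Sult1a1, a sulfotransferase of phenols, differed from 33.1, 32.2 and 32.8 normalized counts with vehicle to 1061, 409 and 324 with fulvestrant, and Klf13, a transcription factor, only from 1650, 1903 and 1945 to 3099, 2795 and 2716. Maob, a mitochondrial monoamine oxidase, had 174, 207 and 179 with vehicle and 437, 350 and 355 with fulvestrant. Among the members, Anxa3 had r = 0.922 with Pi16 (rank 322 of 11273), Ly6a 0.781 and Cd34 0.749, and Dpt (-0.79), Pdgfrb (-0.75), Thy1 (-0.75) and Pdgfra (-0.64) were negative.

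**Figure D5:**
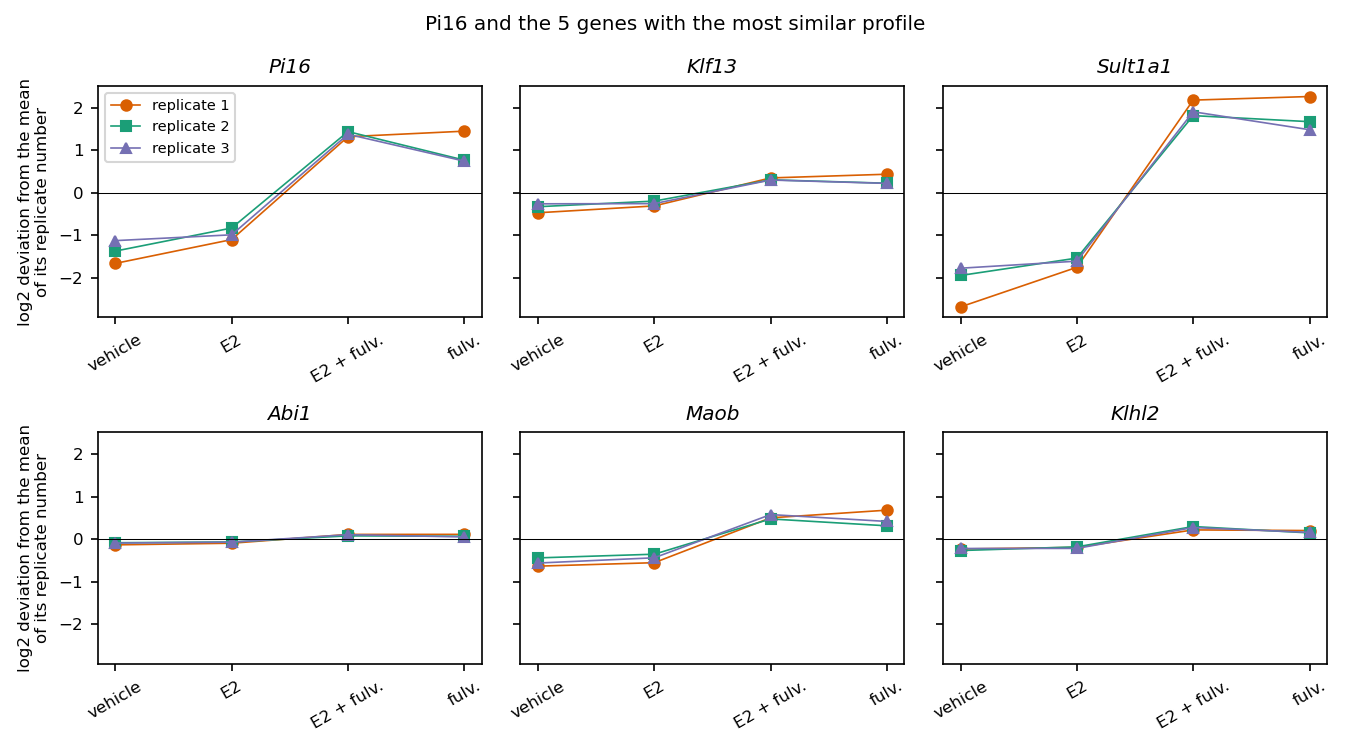
Deviation of log2(normalized count + 1) from the mean of its replicate number, by treatment, for Pi16 and the 5 genes most like it, with 1 line for each replicate number and a common y axis. All 6 genes step up between the 6 samples without and the 6 with fulvestrant, which follows from picking the 5 by likeness to Pi16. The step of Sult1a1 (3.95 for fulvestrant against vehicle) is larger than that of Pi16 (2.38) while that of Abi1 (0.18) is small.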

How the data were processed

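Bulk RNA-seq of 12 HAF samples was used. Per the labels and methods, the authors trimmed reads with Trimmomatic 0.39, removed ribosomal reads, aligned with STAR 2.5.2 to mm10, counted with HTSeq 0.13.5 (reverse strand), removed genes with counts under 10, normalized by the median of ratios with DESeq2 1.37 and adjusted for batches that the sources used here do not name. The deposited values are a signal, normalized counts: multiplied by a sample's size factor, all values came out whole within 0.01, none under 10 reads. Differences were tested with limma (version 3.58.1) on log2(normalized count + 1) of all 13233 genes, with a variance trend, the replicate number as a block and Benjamini-Hochberg adjustment; fold changes are on that scale and understate low genes. The block was used because samples are paired by number: deviations from group means of same-numbered samples correlated across genes at 0.842 to 0.923 (number 1), 0.664 to 0.795 (2) and 0.631 to 0.776 (3), although 2 with 3 correlated as highly (0.632 to 0.792) and 1 with either at -0.862 to -0.706. Exon lengths and positions came from GENCODE (GRCm38), and symbols were found for 13149 genes. The members and lists were chosen with earlier results of these data known. Named genes were all members, the called list genes with the 2 largest changes each way, the other-cell markers present, and the 5 genes most like Pi16. The fit was tested on simulated data with the same treatment effect in every replicate number, which cannot speak for results that rest on replicate 1. Alternatives were another pseudocount (0.1 or 5), a mean of at least 100, no block, all 12 samples, no trend, quantile or total scaling, calls without the fold limit, and each replicate left out in turn. The Schwann cell list is not reported here, although its genes stay in the totals over lists.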

Additional observations from a re-analysis of the deposited data

How the results depend on the processing

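For fulvestrant against vehicle (692 genes and 2 members called), the count moved to 1648 genes and 3 members with all 12 samples in one fit, 104 genes and 1 member (Pi16) without the variance trend, and 0 genes and 0 members with no replicate block (706 genes at an unadjusted p under 0.05). Leaving out each replicate gave 20 to 2208 genes and 0 to 4 members; the lowest came without replicate 3 and the highest without replicate 1. For E2 against vehicle (57 genes, 1 member), the counts were 10 genes and 0 members with all 12 samples, 0 and 0 without the variance trend, 0 and 0 with no replicate block (132 genes at an unadjusted p under 0.05), 0 members with quantile normalization or after rescaling to the total of the listed genes, and 6 to 279 genes and 0 to 3 members on leaving out each replicate. For E2 plus fulvestrant against fulvestrant (0 genes, 0 members), leaving out each replicate gave 0 to 147 genes and 0 to 1 member, and no replicate block gave 0 (26 genes at an unadjusted p under 0.05). Of the members' differences, none that was called reversed. Pdgfra in E2 against vehicle (0.04) became -0.00872 with quantile normalization, and ran from -0.069 to 0.13 on leaving out each replicate. In E2 plus fulvestrant against fulvestrant, the same ranges were -0.14 to 0.011 for Dpt, -0.00787 to 0.066 for Pdgfrb and -0.091 to 0.11 for Anxa3. The cause was not tested. A fit that leaves out a replicate has 2 pairs. The planned count-model alternative was not run. The shallowest member value, Thy1 in replicate 1, rested on 34 reads.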
